A study of Metroxylon sagu with 6 samples.

Results

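Pectin synthesis and remodelling enzymes of sago palm (*Metroxylon sagu*) leaf were followed through 177 of the 99933 Unigenes listed in at least 1 palm. A Unigene is a transcript sequence of the de novo assembly. A member was taken where the best SwissProt match was described as a pectinesterase, polygalacturonase, pectate lyase, galacturonosyltransferase, pectin acetylesterase or rhamnogalacturonan protein, and where the best match in the Nr protein database came from oil palm (*Elaeis guineensis*, 105 members) or date palm (*Phoenix dactylifera*, 72 members). No member was found through the rhamnogalacturonan name. The rule used the annotation and no measured value. The same SwissProt words were found on 62 further Unigenes whose Nr match named neither palm, and these were not counted.

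Leaf RNA was sequenced from 6 sago palms growing on peat soil in the Dalat Sago Plantation. The 3 trunking palms (ST1, ST4 and ST5), which had formed the starch-bearing trunk, were the control, and the 3 non-trunking palms (SN7, SN8 and SN9) had not. Each library held between 17927176 and 18492907 expected counts. The palms received no treatment, their age and genotype were not given in the sources used here, and the phenotypes were sampled at different places of the plantation, so phenotype and place cannot be told apart.

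Pectin is the galacturonic-acid-rich polysaccharide of the primary wall and middle lamella, where it holds neighbouring cells together. Its main chain, homogalacturonan, is built in the Golgi by galacturonosyltransferases of the GAUT family and is secreted with methyl and acetyl groups on it. In the wall, pectinesterases remove the methyl groups and pectin acetylesterases the acetyl groups, which lets calcium stiffen the gel or lets polygalacturonases and pectate lyases cut the chain, and small inhibitor proteins block the pectinesterases.

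No pectin Unigene differed between trunking and non-trunking palms after adjustment. Among 152 members with enough counts to test, 0 passed an adjusted p of 0.05 by edgeR's quasi-likelihood test with Benjamini-Hochberg adjustment (smallest adjusted p = 0.344), as did 0% of the 45928 Unigenes tested. At an unadjusted p under 0.05, 10 members (6.58%) differed, against 9.85% of all Unigenes tested. Of these, 6 were higher in non-trunking palms (5.43% of all Unigenes) and 4 were lower (4.43% of all Unigenes). The groups of palms did not overlap in 23 members (15.1%), 10 with the non-trunking palms above and 13 with them below, against 17.3% of all Unigenes. The median log2 fold change, non-trunking minus trunking throughout, was 0.03 over the tested members and 0.02 over all Unigenes tested, and single members ranged from -1.96 to 1.54. The members' shares at the unadjusted threshold and without overlap thus lay at or below those over all Unigenes. In bulk leaf RNA, fewer cells of a type and less RNA per cell cannot be told apart in any of these values.

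Other tools gave the same count of adjusted calls. DESeq2 called 0 of 157 members at an adjusted p of 0.05 (smallest adjusted p = 0.132) and called 2.22% of all Unigenes. The limma test on log2(FPKM + 1) called 0 of 134 members (smallest adjusted p = 0.268) and called 0.00904% of all Unigenes. At an unadjusted p under 0.05 there were 10 of 177 members in DESeq2 and 10 of 134 in limma. Shares over all Unigenes at that threshold are not given here for these tools, so the 10 are not read further. The unadjusted counts in edgeR changed when 1 palm was left out. Without SN7 there were 2 higher and 2 lower members, without SN8 14 and 2, and without SN9 5 and 2. They were 5 and 0 without ST1, 3 and 0 without ST5, and 6 and 7 without ST4. Shares over all Unigenes in these fits are not given here, so the members' counts cannot be set against them.

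**Figure D1:**
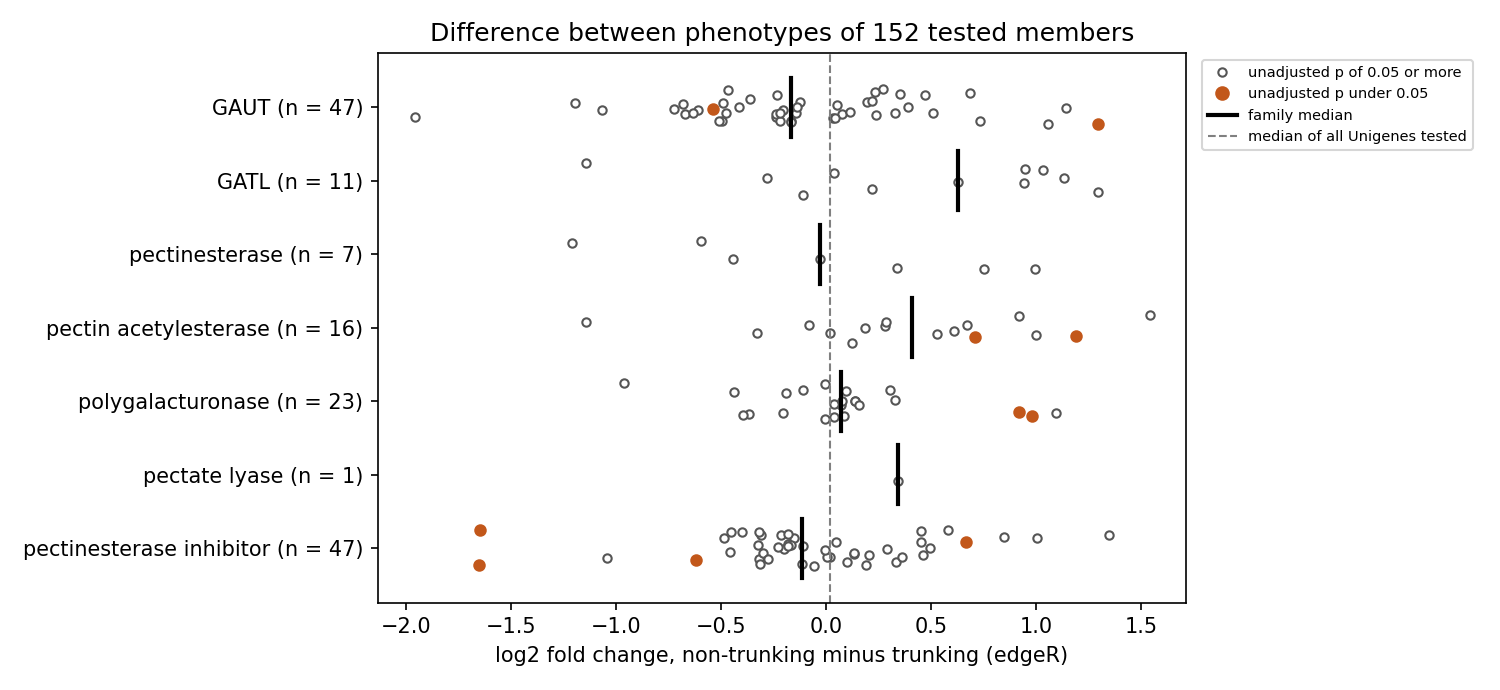
Log2 fold change (non-trunking minus trunking, edgeR) of each of the 152 tested members by enzyme family, with black bars for family medians, a dashed line for the median of all Unigenes tested and filled points for an unadjusted p under 0.05. Filled points number 10, and most members lie within 1 log2 unit of 0.

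The annotation of 1 group stood apart from the rest. SwissProt placed 51 members on a single entry, Pectinesterase inhibitor 10 of Arabidopsis, and none of the 51 had an Nr description that named a pectin enzyme or an InterPro entry for a pectinesterase or its inhibitor, although 41 of them carried an InterPro entry. Their SwissProt E-values lay between 3.4e-13 and 9e-06, whereas their Nr matches had a median E-value of 2.2e-123. The other 126 members had a median SwissProt E-value of 8.00e-121, and 108 of them were at or below 1e-20. Nr called 26 of the 51 uncharacterized and named others as unlike proteins, such as the ribosomal RNA processing protein 1 homolog (CL3897.Contig7), a ferredoxin (Unigene16662) and a sarcalumenin (Unigene23065). Nr named 1 further inhibitor member, Unigene10191 (matched to Pectinesterase inhibitor 12), as a putative invertase inhibitor, a protein family of the same fold. In all, 121 members were named as pectin enzymes by both databases and 56 by SwissProt alone, so counts for the 121 are given separately.

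**Figure D2:**
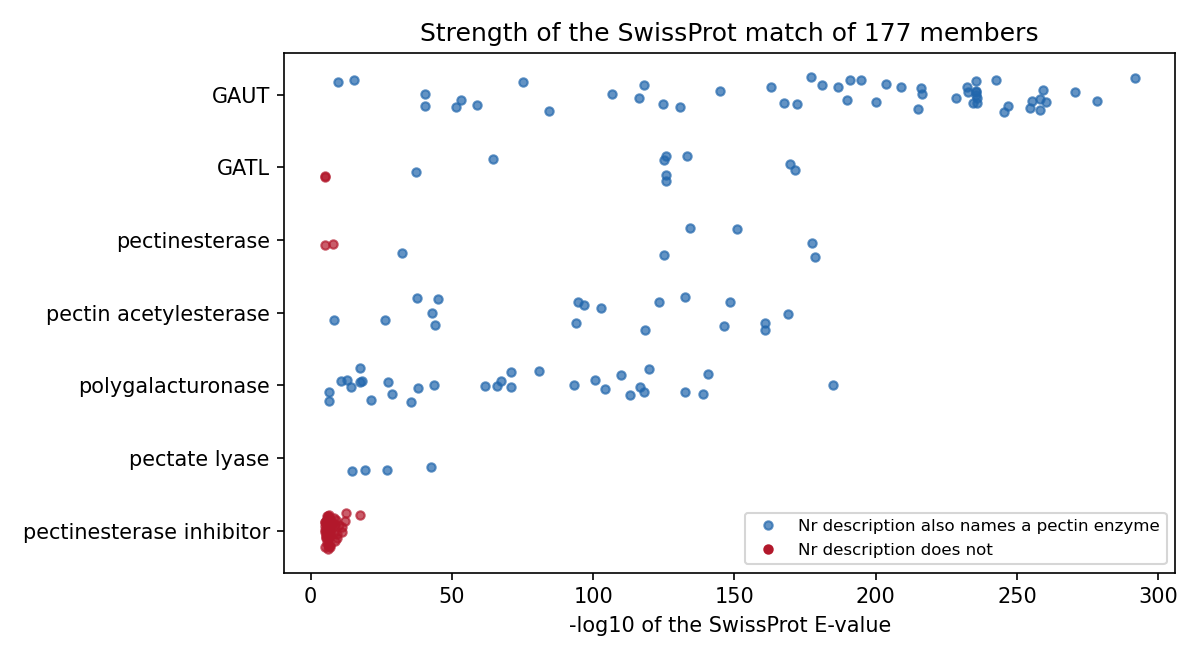
SwissProt E-value of each of the 177 members, as -log10, by enzyme family, in blue where Nr also names a pectin enzyme and in red where it does not. The 52 inhibitor-matched members, all red, crowd at the weak end, while the GAUT members, all blue, reach the strongest matches.

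Of the 121 members named by both databases 102 were tested. Here 5 were higher and 1 was lower at an unadjusted p under 0.05 (5.88%, against 9.85% of all Unigenes), and the median log2 fold change was 0.07. The groups did not overlap in 15 of them (14.7%, against 17.3% of all Unigenes), 8 above and 7 below. The members matched to Pectinesterase inhibitor 10 made up between 46.1% and 54.1% of the summed member FPKM (fragments scaled to transcript length and library size, a level that can be compared between genes) in a palm, so the sum over all members mixed both kinds of match. The 121 members together took between 0.0613% and 0.0919% of all expected counts in a palm.

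Members were mostly long and present in every palm. Their median length was 1558 nt, against 568 nt over all Unigenes, and 149 were listed in all 6 palms. The 25 untested members had a median length of 385 nt and at most 43.94 expected counts in any palm. Many were contigs of one assembly cluster: 121 members lay in clusters and 56 stood alone, giving 101 clusters or single Unigenes in all. Reads of a cluster can be split among its contigs by the authors' counting, so a contig's value is uncertain where its neighbours move the other way, and cluster sums are given beside such contigs. A mean FPKM of at least 10 was reached by 21 members, of which 6 were named by both databases, and 44 lay under 1.

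Chain synthesis by the GAUT family was the largest group, with 52 members in 20 clusters or single Unigenes, all named by Nr too. Of the 47 tested, 20 had a positive and 27 a negative log2 fold change (median -0.17), with 1 higher and 1 lower at an unadjusted p under 0.05 (4.26%, against 9.85% of all Unigenes). Their summed FPKM was 143, 153 and 164 in ST1, ST4 and ST5 and 159, 111 and 170 in SN7, SN8 and SN9, so the phenotypes overlapped.

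Both GAUT members past the unadjusted threshold matched partners of one complex. In Arabidopsis, GAUT1 is the catalytic homogalacturonan synthase and GAUT7 is the partner that anchors it in the Golgi. CL3890.Contig3, matched to GAUT1 (Polygalacturonate 4-alpha-galacturonosyltransferase), stood at 34.5, 28.3 and 34.9 CPM (TMM-normalised counts scaled to library size) in trunking palms and 19.6, 23.4 and 24.1 CPM in non-trunking palms. Every non-trunking palm lay below every trunking palm. The log2 fold change was -0.54 (SE 0.19, n = 3 and 3, edgeR unadjusted p = 0.0266, adjusted p = 0.439), and the largest unadjusted p with 1 palm left out was 0.0797, without ST1. The summed counts of its cluster gave -0.46 (SE 0.17).

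The GAUT1 entry held 8 members. The 6 tested all had a negative log2 fold change (median -0.29), and the groups did not overlap in 2 of them. Unigene3253 had 20.4, 19.1 and 25.4 CPM in trunking palms and 15.9, 16.5 and 18.2 CPM in non-trunking palms (log2 fold change -0.36, SE 0.19). Unigene3254 and Unigene28769 had log2 fold changes of -0.49 (SE 0.31) and -0.17 (SE 0.21), and their groups overlapped.

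CL6851.Contig3, matched to GAUT7, was higher in non-trunking palms. It stood at 2.79, 2.03 and 2.42 CPM in trunking palms and 8.52, 4.46 and 4.84 CPM in non-trunking palms, and each non-trunking palm was above each trunking palm. Its log2 fold change of 1.30 (SE 0.36, edgeR unadjusted p = 0.00983, adjusted p = 0.344) had the smallest p among the members. Of the 10 members past the unadjusted threshold, it and CL8755.Contig2 alone stayed under 0.05 whichever palm was left out, with largest unadjusted p-values of 0.0336 and 0.0496. In the summed cluster the phenotypes overlapped. Summed over CL6851, the values were 12.3, 14.6 and 15.2 CPM in trunking and 26.9, 8.99 and 18.5 CPM in non-trunking palms (log2 fold change 0.37, SE 0.39). The other contigs, CL6851.Contig2 and CL6851.Contig1, had log2 fold changes of -0.51 (SE 0.57) and 0.73 (SE 0.46).

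Contigs of GAUT4 showed how far single contigs may depart from their cluster. CL1140.Contig1 had 112.27, 26.91 and 113.54 expected counts in ST1, ST4 and ST5, 55.24 in SN7, and 0 in SN8 and SN9, where 0 counts allow up to 3 counts each. CL1140.Contig4 had 8.54, 75.26 and 0 counts in the trunking palms and 49.82, 50.30 and 71.19 counts in the non-trunking palms. The second contig was low in ST1 and ST5, where the first was high, and high in SN8 and SN9, where the first had no counts. The summed cluster had 62.2, 71.5 and 65.7 CPM in trunking and 79.2, 41.6 and 66.0 CPM in non-trunking palms, and the log2 fold change was -0.09. The most negative log2 fold change among the members, -1.96 (SE 1.67) for CL1140.Contig1, was thus not seen in its cluster.

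**Figure D3:**
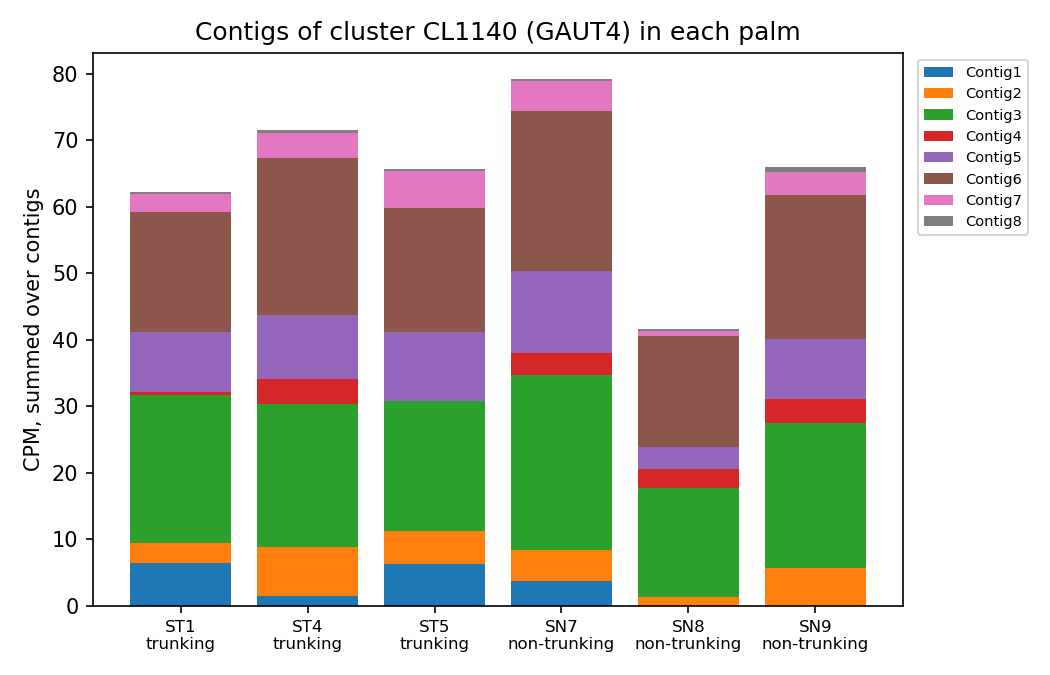
TMM-normalised CPM of the contigs of the GAUT4 cluster CL1140 in each palm, stacked to the cluster's sum. CL1140.Contig1 has no counts in SN8 and SN9, and the sum lies between 41.6 and 79.2 CPM in all 6 palms.

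No other GAUT member passed the unadjusted threshold. The GAUT member of highest level was CL9796.Contig2, matched to GAUT15, with a mean of 20.0 FPKM over the 6 palms. It had 39.8, 38.7 and 33.9 CPM in trunking palms and 87.9, 30.1 and 62.3 CPM in non-trunking palms, so that SN8 fell below all trunking palms and SN7 and SN9 lay above them (log2 fold change 0.68, SE 0.38). All 3 tested members of GAUT10 had positive log2 fold changes (median 0.11) and all 4 of GAUT9 negative ones (median -0.19), each with overlap between phenotypes except for 1 contig of GAUT9. GAUT8, known in Arabidopsis as QUASIMODO1 and needed there for cell adhesion, had 4 tested members with a median of -0.70, and 1 of them, CL2265.Contig7, was at 0.51 (SE 0.56). All GAUT9 members, and all GAUT8 members but Unigene30424, were contigs of the one cluster CL2265, so they are not separate observations. The sum over CL2265 gave a log2 fold change of -0.12 (SE 0.39). The GAUT10 members were likewise contigs of one cluster, CL2917, whose sum gave 0.14 (SE 0.30).

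The GAUT-like (GATL) members varied widely between palms of one phenotype. GATL proteins are shorter relatives of the GAUT enzymes, and GATL1 (PARVUS) is known in Arabidopsis for its part in making the xylan of secondary walls. All 11 members were tested, 8 with positive and 3 with negative log2 fold changes (median 0.63), and 0 reached an unadjusted p under 0.05. The median SD of log2(CPM + 1) within a phenotype was 1.02 for these members, against 0.38 for GAUT members and 0.35 for all Unigenes tested. CL445.Contig2, matched to GATL9 and at a mean of 30.4 FPKM the highest GATL member, had 36.5, 12.5 and 41.0 CPM in trunking palms and 139, 68.3 and 12.8 CPM in non-trunking palms. SN7 and SN8 were high and SN9 was level with ST4, so 1.29 (SE 0.83) as log2 fold change came with an unadjusted edgeR p of 0.164. Without SN7 it was 0.43. The other contigs of CL445, also matched to GATL9, both had negative values, -0.28 and -1.14. Counts summed over CL445 gave 0.67 (SE 0.95) with overlap between phenotypes, so the value of CL445.Contig2 was seen only in part in its cluster. The 3 GATL1 members were all highest in SN7: Unigene6471, for instance, had 3.30, 5.65 and 2.53 CPM in trunking and 15.8, 2.23 and 4.20 CPM in non-trunking palms.

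Both GATL7 members had positive log2 fold changes. CL4923.Contig2, the GATL member with the smallest p, stood at 2.79, 1.58 and 1.92 CPM in trunking palms and 6.59, 3.13 and 2.42 CPM in non-trunking palms. Only SN9 fell within the trunking range. The log2 fold change was 0.94 (SE 0.49, edgeR adjusted p = 0.588), and 0.40 without SN7.

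Pectinesterases, which strip methyl groups from homogalacturonan in the wall, were few among the members. The median of their mean FPKM was 2.23, against 1.99 for GAUT members and 0.775 for all Unigenes. There were 8 members, 6 of them named by Nr too, and of the 7 tested 0 reached an unadjusted p under 0.05 (median log2 fold change -0.03). Unigene1145, a short sequence matched to pectinesterase 15, was named a homeobox-leucine zipper protein by Nr. CL4149.Contig2 had the highest level of the family, 4.00 FPKM. It stood at 2.96, 1.88 and 19.1 CPM in trunking palms and 20.1, 2.01 and 1.48 CPM in non-trunking palms. ST5 and SN7 were high and the other 4 palms low, so the log2 fold change of -0.03 (SE 1.23) describes 1 high palm in each phenotype. It was 1.69 without ST5 and -2.19 without SN7. Its cluster neighbour CL4149.Contig3, matched to pectinesterase 32, had 1.54, 1.68 and 1.81 CPM in trunking and 6.86, 0.84 and 2.37 CPM in non-trunking palms (log2 fold change 0.99, SE 0.73), and -0.06 without SN7. CL6524.Contig2, matched to pectinesterase 31, was steadier, at 3.64, 5.54 and 3.30 CPM in trunking and 5.26, 4.46 and 6.07 CPM in non-trunking palms.

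Pectin acetylesterases, which remove acetyl groups, had mostly positive log2 fold changes. Of 18 members 16 were tested, with 13 positive and 3 negative log2 fold changes and a median of 0.41, and 2 were higher and 0 lower at an unadjusted p under 0.05 (12.5%, against 9.85% of all Unigenes). Their summed FPKM was 35.0, 35.2 and 28.5 in trunking palms and 41.1, 30.2 and 54.4 in non-trunking palms, with SN8 inside the trunking range. Both members past the unadjusted threshold were contigs of the one cluster CL3748, which can share reads, so they are not separate observations.

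CL3748.Contig2, matched to pectin acetylesterase 6, had 1.20, 1.78 and 1.54 CPM in trunking palms and 4.59, 1.95 and 3.80 CPM in non-trunking palms. CL3748.Contig3, matched to pectin acetylesterase 12, had 6.72, 6.21 and 5.83 CPM in trunking palms and 12.3, 6.81 and 11.5 CPM in non-trunking palms. In each contig SN7 and SN9 were well above the trunking palms and SN8 just above them. The log2 fold changes were 1.19 (SE 0.44, edgeR unadjusted p = 0.0319, adjusted p = 0.452) and 0.71 (SE 0.28, unadjusted p = 0.0431, adjusted p = 0.487), and without SN7 the unadjusted p-values were 0.106 and 0.126. The summed cluster stood at 13.1, 11.2 and 13.0 CPM in trunking and 25.4, 14.1 and 23.8 CPM in non-trunking palms, also without overlap and with a log2 fold change of 0.76 (SE 0.27).

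No other acetylesterase passed the unadjusted threshold. The largest log2 fold change of any tested member was that of Unigene560, matched to pectin acetylesterase 8, at 1.54 (SE 0.73, edgeR unadjusted p = 0.0744), but it rested on 3, 24 and 11 expected counts in trunking and 38, 21 and 44 in non-trunking palms. The acetylesterase of highest level was Unigene12990, matched to pectin acetylesterase 5, with a mean of 6.51 FPKM. It had 13.9, 16.2 and 12.5 CPM in trunking and 13.2, 12.4 and 14.7 CPM in non-trunking palms (log2 fold change -0.08, SE 0.19). Pectin acetylesterase 9, which with pectin acetylesterase 8 deacetylates leaf pectin in Arabidopsis, was the match of 6 tested members with a median of 0.23. They ranged from -1.14 to 1.00 and were contigs of 2 clusters, so they are not separate observations. The cluster sums gave 0.22 (SE 0.52) for CL4916 and 0.23 (SE 0.39) for CL9299.

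Polygalacturonases, which hydrolyse the homogalacturonan chain, included the member of highest FPKM among those named by both databases. Of 32 members 23 were tested, 14 with positive and 9 with negative log2 fold changes (median 0.07), and 2 were higher and 0 lower at an unadjusted p under 0.05 (8.70%, against 9.85% of all Unigenes). Their summed FPKM was 101, 133 and 98.6 in trunking palms and 120, 114 and 142 in non-trunking palms. CL9306.Contig1, matched to the Arabidopsis polygalacturonase At1g80170 and at a mean of 33.3 FPKM, had 43.5, 70.9 and 45.9 CPM in trunking palms and 66.6, 44.2 and 65.4 CPM in non-trunking palms. ST4, SN7 and SN9 were high and the others low, which left a log2 fold change of 0.14 (SE 0.29). CL9306.Contig2 of the same cluster followed that order in part, with ST4, SN9 and SN7 highest (log2 fold change 0.15, SE 0.32).

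The pair of contigs past the unadjusted threshold came from 1 cluster again. CL8755.Contig2, matched to a grapevine probable polygalacturonase, had 18.8, 13.2 and 16.1 CPM in trunking palms and 42.3, 31.9 and 20.9 CPM in non-trunking palms. CL8755.Contig1 had 20.1, 11.1 and 18.3 CPM in trunking palms and 41.7, 28.8 and 23.1 CPM in non-trunking palms. In both, every non-trunking palm was above every trunking palm, with SN7 highest and SN9 nearest to the trunking range. The log2 fold changes were 0.98 (SE 0.30, edgeR unadjusted p = 0.0144, adjusted p = 0.385) and 0.92 (SE 0.32, unadjusted p = 0.0256, adjusted p = 0.436). The cluster sum had 39.2, 25.1 and 34.8 CPM in trunking and 85.1, 61.9 and 45.1 CPM in non-trunking palms (log2 fold change 0.95, SE 0.30). The other grapevine-matched polygalacturonases held no further member past the unadjusted threshold, and Unigene13688, for instance, had 11.5, 8.14 and 8.30 CPM in trunking and 8.99, 8.54 and 11.8 CPM in non-trunking palms (log2 fold change 0.07, SE 0.25).

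Pectate lyases, which cut de-esterified pectin by elimination, were barely seen in leaf. Of 4 members 1 was tested. Unigene22703, matched to probable pectate lyase 4, had 4.72, 6.87 and 4.56 CPM in trunking and 8.05, 5.08 and 7.35 CPM in non-trunking palms (log2 fold change 0.34, SE 0.30). The other 3 had at most 16 expected counts in any palm. Unigene54827, matched to probable pectate lyase 16, had 16 counts in SN7, 4 in SN9, 2 in ST1 and 0 in ST4, ST5 and SN8.

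**Figure D4:**
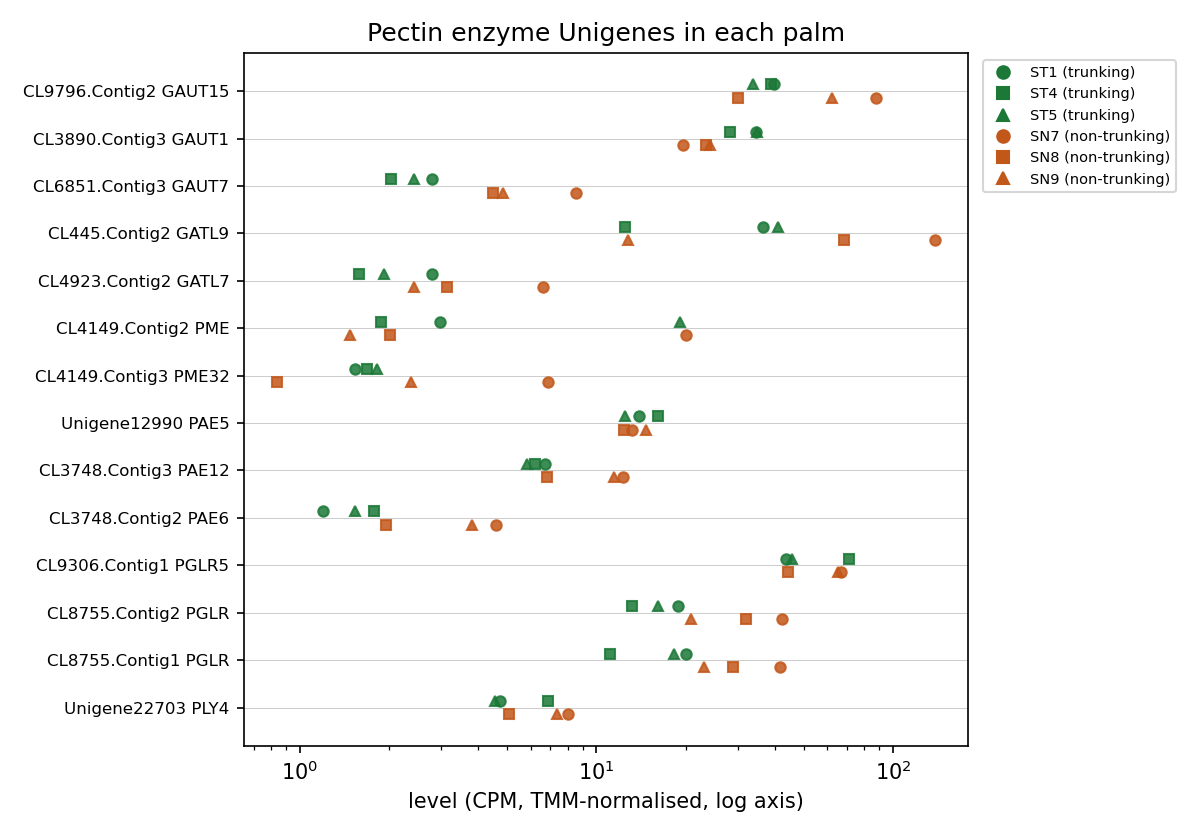
TMM-normalised CPM on a log axis in each of the 6 palms (green: trunking, orange: non-trunking) for 14 named members that Nr also calls pectin enzymes, 1 member a line, labelled with the SwissProt entry. The groups do not overlap in CL3890.Contig3, CL6851.Contig3 and the contigs of CL3748 and CL8755, and the gap can be narrow, as in CL3748.Contig2 between 1.78 and 1.95 CPM.

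Of the 52 members matched to pectinesterase inhibitors 47 were tested, with 20 positive and 27 negative log2 fold changes (median -0.11). At an unadjusted p under 0.05, 1 was higher and 3 were lower (8.51%, against 9.85% of all Unigenes). None of the 52 was named a pectinesterase inhibitor by Nr. Unigene10191, the one whose Nr name has the same fold, had 1.65, 1.02 and 4.12 CPM in trunking palms and 0.93, 0.78 and 0.44 CPM in non-trunking palms. ST5 was far above the rest, and ST4 only just above SN7. The log2 fold change was -1.65 (SE 0.66, edgeR unadjusted p = 0.0411, adjusted p = 0.482), and -0.89 without ST5.

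The other 3 had names of other proteins in Nr. Unigene23065 (sarcalumenin in Nr) had 1.99, 0.81 and 3.46 CPM in trunking palms and 0.73, 0.61 and 0.64 CPM in non-trunking palms, again highest in ST5, with a log2 fold change of -1.65 (SE 0.61, edgeR adjusted p = 0.451), and -1.08 without ST5. CL3897.Contig7 (ribosomal RNA processing protein 1 homolog in Nr) had 12.1, 9.05 and 11.6 CPM in trunking palms and 6.66, 6.70 and 7.95 CPM in non-trunking palms (log2 fold change -0.62, SE 0.22, adjusted p = 0.446), while its cluster sum overlapped, at 62.0, 55.1 and 63.0 CPM against 56.6, 49.6 and 54.4 CPM. Unigene16662 (ferredoxin in Nr) had 20.6, 17.3 and 13.8 CPM in trunking palms and 36.5, 22.7 and 23.0 CPM in non-trunking palms (log2 fold change 0.66, SE 0.27, adjusted p = 0.495), and 0.40 without SN7.

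Among the 5 members of highest mean FPKM, 3 belonged to this weakly matched entry. CL5712.Contig2, uncharacterized in Nr, was the highest at a mean of 39.4 FPKM, with 55.0, 75.2 and 41.7 CPM in trunking and 155, 76.5 and 77.6 CPM in non-trunking palms. SN7 stood out and SN8 and SN9 were level with ST4 (log2 fold change 0.85, SE 0.38, edgeR unadjusted p = 0.0607). Unigene26130 (mean 35.5 FPKM) and CL5374.Contig1 (mean 31.2 FPKM) had log2 fold changes of 0.46 (SE 0.37) and 0.00 (SE 0.24).

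Summing counts over assembly clusters gave a similar picture. Of 85 tested clusters or single Unigenes holding a member, 6 reached an unadjusted p under 0.05 in edgeR. There were 3 higher, against 6.07% of the 25629 tested over the whole assembly, and 3 lower, against 4.92%. An adjusted p of 0.05 was passed by 0 of the 85 and by 0% of all clusters and single Unigenes. Among the 49 with a member named by both databases, 0 passed an adjusted p of 0.05 and 3 reached an unadjusted p under 0.05: the polygalacturonase cluster CL8755 and the acetylesterase cluster CL3748 were higher and the GAUT1 cluster CL3890 was lower.

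A further pattern ran across the phenotypes. Among the 102 tested members named by both databases, ST5 (trunking) and SN7 (non-trunking) held the 2 highest levels in 20 (19.6%), against 7.34% of all Unigenes tested. This pair was picked out of 15 after the values were seen, so the share is a description with no test. Contigs of one cluster were counted singly, here and in the counts by palm below. The 121 members named by both databases lay in 62 clusters or single Unigenes, so they are not separate observations. Over all 152 tested members the share was 14.5%, and the pairs SN7 with SN9 (17.1%, against 9.99% of all Unigenes) and ST1 with ST5 (15.8%, against 10.5%) were more frequent still. SN8 and SN9 together were highest in 0 members, against 6.19% of all Unigenes.

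By family, ST5 and SN7 were the top pair in 13 of 47 GAUT, 4 of 11 GATL, 4 of 7 pectinesterase and 1 of 47 inhibitor-matched members, and in 0 of the 16 acetylesterases, 23 polygalacturonases and 1 pectate lyase. These are again counts of contigs, and the 52 GAUT members lay in 20 and the 11 GATL members in 7 clusters or single Unigenes. CL10460.Contig3, matched to GATL3, had 8.76, 4.58 and 27.4 CPM in trunking palms and 39.2, 6.19 and 2.12 CPM in non-trunking palms. CL445.Contig1, matched to GATL9, had 10.5, 0.86 and 31.0 CPM in trunking and 17.4, 1.73 and 0.15 CPM in non-trunking palms. In each of these the range within a phenotype was wider than the difference between the phenotypes' means.

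Pectinesterases had the same shape at lower levels. Unigene12916, matched to pectinesterase 12, had 0.57, 1.47 and 2.69 CPM in trunking and 7.19, 0.28 and 0.59 CPM in non-trunking palms. Unigene13006, matched to pectinesterase 3, had 3.70, 2.09 and 7.92 CPM in trunking and 4.66, 0.56 and 0.74 CPM in non-trunking palms. GAUT members took part with a smaller amplitude, as in Unigene3301, matched to GAUT13, with 10.6, 6.87 and 15.2 CPM in trunking and 24.5, 7.76 and 8.88 CPM in non-trunking palms.

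SN7 and SN8 sat at opposite ends. SN7 had the highest level in 50 of 152 members (32.9%, against 23.1% of all Unigenes), and SN8 the lowest in 46 (30.3%, against 14.8%). The SN7 library had the lowest TMM factor, 0.82 against up to 1.13 in SN9, and listed 66134 Unigenes, the fewest of the 6, against up to 78795 in ST4. Their part in the pattern was not tested.

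**Figure D5:**
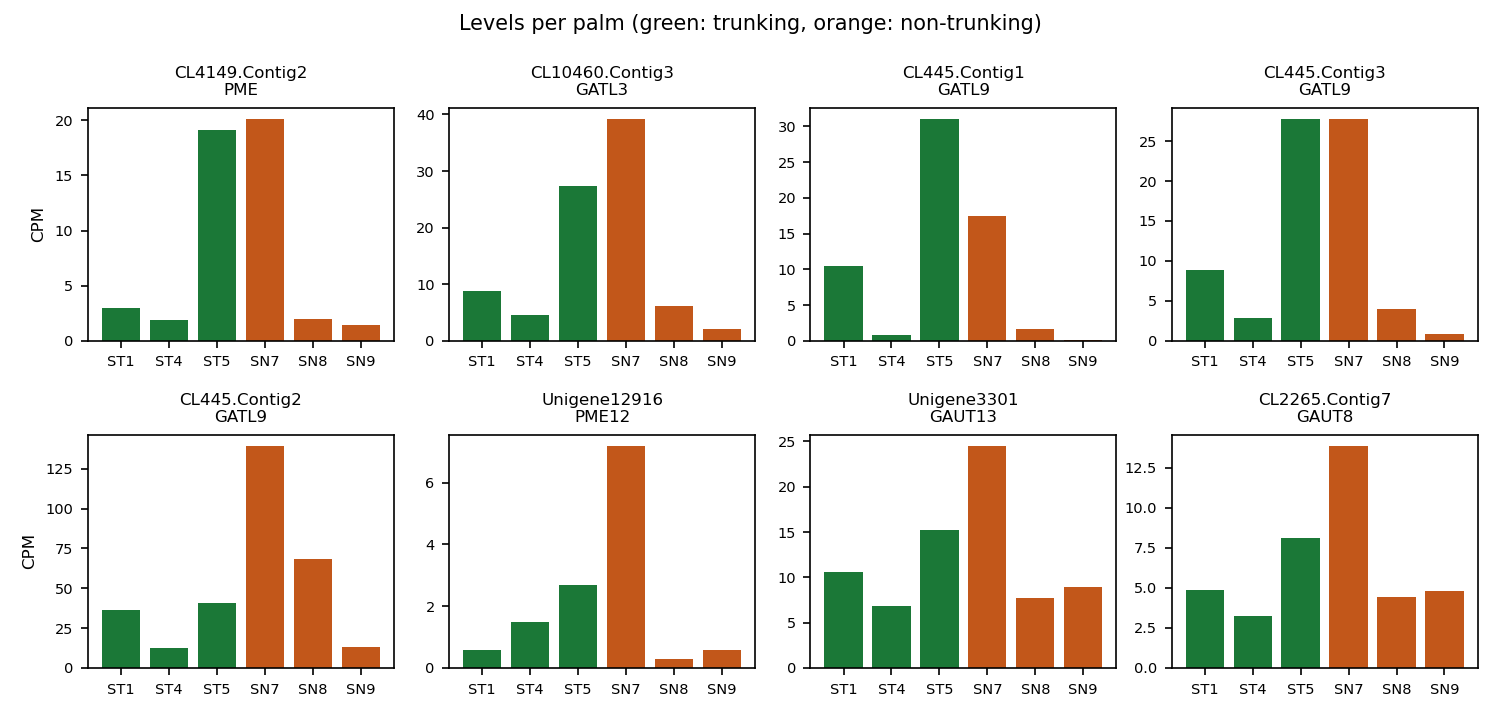
TMM-normalised CPM in each palm as bars (green: trunking, orange: non-trunking) for 8 members chosen after their values were seen. ST5 and SN7 are the highest palms in 7 of them, and in CL445.Contig2 SN8 stands above ST5 (68.3 against 41.0 CPM).

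Genes that supply, decorate or trim pectin were described in the same way from lists of SwissProt names. The nucleotide sugar list, for enzymes that make and interconvert UDP-sugars, held 51 Unigenes, with 43 tested, 1 higher and 1 lower at an unadjusted p under 0.05 (4.65%, against 9.85% of all Unigenes) and a median log2 fold change of 0.14. Its summed level was 563, 409 and 1236 CPM in trunking and 1441, 744 and 450 CPM in non-trunking palms, highest in ST5 and SN7 as for some GAUT and GATL members. Of this sum, 10 UDP-arabinopyranose mutase Unigenes in 2 clusters made up 655 CPM in ST5 and 818 CPM in SN7. The 21 UDP-arabinose 4-epimerase Unigenes were instead highest in SN8, at 300 CPM against 225 CPM in ST5 and 191 CPM in SN7. The other names with a Unigene were highest in ST5 and SN7. The homogalacturonan methylation list, of putative Golgi methyltransferases, held 56, with 38 tested, 5 higher and 3 lower (21.1%) and a median of 0.30, and its groups did not overlap in 28.9% of those tested, against 17.3% of all Unigenes. The rhamnogalacturonan side chain list held 61, with 46 tested, 4 higher and 2 lower (13.0%) and a median of -0.03. It mixed enzymes that build side chains with enzymes that take sugars off them. Of its 61 Unigenes, 27 matched beta-galactosidase (2 higher and 1 lower) and 7 matched alpha-L-arabinofuranosidase (1 higher and 0 lower). The groups did not overlap in 8.70% of the side chain Unigenes tested and in 6.98% of the nucleotide sugar Unigenes tested, both below the share of all Unigenes. Under the same Nr rule, no Unigene matched "rhamnose biosynthetic enzyme" or "rhamnose synthase". These were the only names searched for rhamnose-forming enzymes, so such enzymes under other names would be missed.

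The longest list, for pectin-binding receptor kinases, was made by name, and pectin binding of its members was not tested. It held 11 higher and 4 lower of 82 tested (18.3%, against 9.85% of all Unigenes). As in the other lists, contigs of one cluster were counted singly and are not separate observations. The 93 Unigenes of this list lay in 45 clusters or single Unigenes. Its groups did not overlap in 19.5% of those tested, against 17.3% of all Unigenes. The wall-associated kinases, whose outer part binds pectin in Arabidopsis, accounted for 11 higher and 2 lower of 70 (median 0.71), and HERK kinases, relatives of the receptor FERONIA, for 0 higher and 2 lower of 10 (median -0.94). Chosen for having the smallest p of its list, CL5414.Contig5, matched to wall-associated receptor kinase 3, had 3.30, 5.95 and 3.90 CPM in trunking palms and 27.0, 15.1 and 14.4 CPM in non-trunking palms. The groups lay well apart, yet the log2 fold change of 2.10 (SE 0.36) had an edgeR adjusted p of 0.194. Chosen in the same way from the side chain list, CL5818.Contig1, matched to ARAD1, an arabinan synthase of Arabidopsis, had 22.9, 21.5 and 32.0 CPM in trunking and 7.85, 12.9 and 10.3 CPM in non-trunking palms (log2 fold change -1.30, SE 0.27, adjusted p = 0.232).

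Marker lists described the makeup of the leaves coarsely. The mesophyll list (31 Unigenes) covered chlorophyll-binding proteins and the Rubisco small subunit. It summed to between 20287 and 36599 CPM in trunking and 25683 and 59329 CPM in non-trunking palms, with overlap, and was highest in SN7. Of its 29 log2 fold changes 26 were positive. At an unadjusted edgeR p under 0.05, 3 were higher (10.3%, near the 9.85% of all Unigenes). The epidermis and cuticle list (15 Unigenes) summed to between 2496 and 3214 CPM in trunking palms and 1746 and 1987 CPM in non-trunking palms, without overlap. All 8 tested had negative log2 fold changes, and 1 was lower at an unadjusted edgeR p under 0.05 (12.5%, against 9.85% of all Unigenes). Summed by name, each part of the list overlapped. The ECERIFERUM names, for instance, had 1365, 1277 and 1374 CPM in trunking and 665, 1307 and 635 CPM in non-trunking palms. The xylem wall list (7 Unigenes) summed to at most 5.06 CPM, the dividing cell list (10 Unigenes) to between 188 and 262 CPM, and the pollen list (29 Unigenes) to between 310 and 572 CPM. No Unigene matched the phloem names, the laccases, cellulose synthase 7 and fasciclin-like proteins of the xylem names, or the cyclin-dependent kinase, histone and topoisomerase names of the dividing cell list. The part of the mesophyll and epidermis levels in the members' values was not tested.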

How the data were processed

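Leaf RNA of 6 palms was sequenced on the BGISEQ-500 platform, and the authors assembled Unigenes with Trinity and TGICL and counted reads with Bowtie2 and RSEM (versions not given in the sources used here). The deposited tables held RSEM expected counts (estimated counts, not whole) and FPKM values made by the authors, with no Unigene listed under 0.01 FPKM. A Unigene missing from a palm's table was taken as 0.

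Expected counts were rounded and tested with edgeR 4.0.16 in R 4.3.3 (filterByExpr, TMM, two-sided quasi-likelihood test) over 45928 Unigenes with Benjamini-Hochberg adjustment. SE is the absolute log2 fold change divided by the square root of F. CPM values are TMM-normalised. DESeq2 1.42.0, limma 3.58.1 on log2(FPKM + 1), other filters and scalings, cluster sums and leaving out each palm were alternatives, and the subset also named by Nr was chosen after seeing the data. The fit was tested on simulated data. An exact permutation test of 3 against 3 cannot go below 0.1. Replicates are separate palms, 3 a phenotype.

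The members and the pathway and marker lists were chosen with earlier results of these data known. Named Unigenes were the member of highest mean FPKM and of smallest p in each family, up to 15 members with the smallest unadjusted p under 0.05 and groups that did not overlap, and the 5 of highest mean FPKM. Others are examples chosen after their values were seen. No sequences were used here.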

Additional observations from a re-analysis of the deposited data

How the results depend on the processing

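The count of members past an adjusted p of 0.05 was 0 under every alternative run. Against 6 higher and 4 lower members at an unadjusted p under 0.05, limma on log2(FPKM + 1) without a filter gave 2 lower, cluster sums gave 3 higher, and the members also named by Nr (chosen after seeing the data) gave 1 lower. Leaving out 1 palm gave between 2 and 14 higher and between 0 and 7 lower, with the median log2 fold change between -0.13 and 0.07. Shares over all Unigenes under these alternatives are not given here. Of 314 values of 21 named Unigenes under alternatives, 298 kept their direction and 16 in 4 Unigenes did not. CL4149.Contig2 (-0.03) was at 0.0023 without a filter, 0.00031 with DESeq2 and 0.22 in cluster sums, and between -2.19 and 1.69 with 1 palm left out. CL5374.Contig1 (0.00) was at -0.075 with library size alone, -0.0020 with a filter of 1 CPM, -0.065 by limma on log2(FPKM + 1) with and without its filter, and -0.067 with a pseudocount of 0.1, and between -0.12 and 0.15 with 1 palm left out. CL4149.Contig3 was between -0.059 and 1.46, and Unigene12990 between -0.17 and 0.015, with 1 palm left out. Where a palm was left out, its phenotype kept 2 palms. The cause of these moves was not tested, apart from the smaller number of palms or members. No paired analysis was possible because the palms of the 2 phenotypes carry different numbers (1, 4 and 5 against 7, 8 and 9). Between palms of one phenotype the common biological coefficient of variation was 0.50, which limited precision for members at every level, those under a few CPM included.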
